A study of Mus musculus with 11 samples.

Results

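10 genes of de novo lipogenesis were followed in whole distal tibia of control mice and of mice in which bone marrow adipocytes were targeted with diphtheria toxin A. The set was defined by gene symbol as Acaca, Acacb, Fasn, Acly, Scd1, Scd2, Elovl6, Me1, Thrsp and Dgat2. It was chosen with earlier results of these data known. All 10 genes were found among the 22600 genes of the merged count table. All 10 also passed the filter on low counts, which left 16496 genes for testing. The data were strand-specific mRNA sequencing of 11 mice, 4 Control (genotype label BMAd-WT) and 7 BMAd-DTA, with 1 library per mouse. All mice were of the strain C57BL6/SJL, aged 24 weeks by the labels, fed ad libitum and otherwise untreated. By the study's methods the Cre line, carried by controls too, combines Osterix-FLPo with a FLPo-dependent Cre cassette (FAC) in the 3′ region of the endogenous Adipoq gene, and BMAd-DTA mice carry in addition ROSA-DTA, in which Cre removes a stop cassette ahead of the toxin. Cre is therefore restricted to cells with both an Osterix history and adiponectin expression, mainly marrow adipocytes and a small share of adipogenic stromal precursors, and its efficiency rises with age without becoming complete. Controls share the modified Adipoq locus, and circulating adiponectin is low in mice that carry it.

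De novo lipogenesis turns cytosolic citrate into fatty acids. ATP citrate lyase (Acly) releases acetyl-CoA, malic enzyme (Me1) supplies part of the NADPH, acetyl-CoA carboxylase (Acaca and its paralog Acacb) makes malonyl-CoA, and fatty acid synthase (Fasn) builds palmitate. Elovl6 lengthens palmitate to stearate, stearoyl-CoA desaturase (Scd1, Scd2) introduces the double bond that gives oleate and palmitoleate, and Dgat2 places the acyl chains into triacylglycerol. Thrsp, also called Spot 14, is a small protein that accompanies high lipogenic activity in fat and liver. Mature adipocytes express the route strongly, but dividing cells use Acly, Acaca, Fasn and Scd2 as well, since they need membrane lipid.

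Total counts per library in the merged table ranged from 16969529 to 18637663. Within each group every pair of libraries differed by far more than sampling noise, with a chi-square of at least 18.3 per gene. The whole bone libraries held RNA of several cell types, and their make-up differed. The 12 adipocyte markers (Adipoq, Retn, Lep, Cfd, Plin1, Plin4, Cidec, Fabp4, Lipe, Pck1, Adrb3 and Aqp7) were present in every library, with a summed level of 727 to 1542 CPM (gene counts scaled to a common effective library size) in Control and 276 to 940 CPM in BMAd-DTA, and 4 of 7 BMAd-DTA mice lay below every Control mouse. The summed level of 9 osteoblast and osteocyte markers was 2767 to 12869 CPM in Control and 15147 to 35846 CPM in BMAd-DTA, without overlap. The summed level of 7 proliferation markers was 3186 to 4447 CPM in Control and 2320 to 3099 CPM in BMAd-DTA, also without overlap. Skeletal muscle markers were near absent in Control mouse 4 and BMAd-DTA mice 2, 3 and 5 and abundant in the other libraries, and their summed level spanned 15.9 to 1274 CPM in Control and 17.5 to 1005 CPM in BMAd-DTA. Of the keratinocyte markers only Krt10 was tested, at no more than 1.89 CPM in any library. All libraries carried Xist RNA (13810 to 20260 counts) and at most 1 count over the Y-linked genes examined, while the legends of the study describe male mice and the labels give no sex.

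Because Scd1 and Scd2 are close copies, the reads that tell them apart are of interest. Their coding sequences, aligned over 1065 bases, were 90.3% identical, and the longest identical run was 147 bases. The last 90 coding bases of each, taken from GENCODE M21 transcripts and printed 5′ to 3′ with the differing bases in capitals, show the kind of difference that a 100-base read can use:
Scd1: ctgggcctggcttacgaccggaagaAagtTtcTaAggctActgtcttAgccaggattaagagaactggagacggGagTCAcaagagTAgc
Scd2: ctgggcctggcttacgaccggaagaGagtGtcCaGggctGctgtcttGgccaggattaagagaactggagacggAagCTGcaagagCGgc
The 2 stretches differed at 12 of 90 positions. Over the full transcripts, 2.66% of the 100-base windows of Scd1 and 0.896% of those of Scd2 also occurred in another gene. The other desaturase genes were nearly silent, with 12 counts for Scd3 and 63 counts for Scd4 over all 11 libraries. Acaca and Acacb were 72.3% identical in coding sequence and shared no 100-base window. A different overlap concerned Acaca, since 42.8% of its 100-base windows also occurred in the processed pseudogene Gm5182. Read pairs that fit both places equally were not in the counts, and Gm5182 itself had 80 counts over all libraries. For Me1 that share was 14.6%, with the pseudogenes Gm7049 and Gm7329, and for Elovl6 it was 2.27%. No window of Acacb, Fasn, Acly, Thrsp or Dgat2 was shared. The levels of Acaca and Me1 per length are therefore given with less certainty. Levels per length also divide by the union of all annotated exons, which can be much longer than 1 transcript. It was 6431 bases for Elovl6 and 17074 bases for Acaca, against 2610 and 9513 bases in the transcripts used for the windows. The order of the levels can depend on that choice.

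Promoter sequence of 7 of the genes (8 windows, from 250 bases before to 50 bases after the RefSeq start, GRCm38.p6) was searched on both strands for the sterol regulatory element core TCACNCCAC, the E-box CACGTG and the NF-Y box CCAAT, which are motifs known from lipogenic promoters. Neither TCACNCCAC nor CACGTG was found in any of them, and they occurred in 1.24% and 7.15% of all 32851 promoter windows. Scd1, Scd2 and Dgat2 had no window. The only windows of Acaca and Acacb lie inside the annotated genes, downstream of the gene starts. The sequence at those gene starts was therefore not searched. CCAAT occurred in 5 of the 7 genes (Acacb, Acly, Fasn, Me1 and Thrsp) and in 37.4% of all windows. The 120 bases directly upstream of Fasn and Acly are shown because both genes lie on the minus strand of chromosome 11 and only Fasn had an unadjusted p below 0.05 in the comparison of the groups, with CCAAT in either orientation in capitals:
Fasn, chr11:120824548-120824667: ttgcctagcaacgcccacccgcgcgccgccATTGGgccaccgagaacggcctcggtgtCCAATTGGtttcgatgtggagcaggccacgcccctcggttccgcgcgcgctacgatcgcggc
Acly, chr11:100528001-100528120: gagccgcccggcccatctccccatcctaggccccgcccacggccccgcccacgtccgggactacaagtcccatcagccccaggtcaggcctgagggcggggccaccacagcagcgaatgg
The Fasn stretch held 3 matches, of which the last pair overlaps, and the Acly stretch held none, its match lying elsewhere in its window. These matches describe sequence only.

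Scd1 dominated the set. Per length, as CPM divided by the exon length in kilobases (RPKM) in Control mice, Scd1 stood at 421 ± 71.0 (SD, n = 4) and made up 79.6% of the summed level of the 10 genes. Acly followed at 35.1 ± 1.75 RPKM, Scd2 at 24.7 ± 5.33 RPKM, Fasn at 14.3 ± 2.42 RPKM and Dgat2 at 14.1 ± 0.521 RPKM. Lower still were Thrsp at 7.35 ± 3.02, Me1 at 4.09 ± 0.666, Acaca at 3.49 ± 0.516 and Elovl6 at 3.36 ± 0.496 RPKM, and Acacb was lowest at 1.15 ± 0.300 RPKM. The Control ranges of Fasn and Dgat2 overlapped, and so did those of each neighbouring pair from Thrsp to Elovl6, so their order was not resolved. In BMAd-DTA mice Scd1 was still first, at 199 ± 118 RPKM (n = 7), and its share of the sum was 67.9%.

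The fitted level of all 10 genes was lower in BMAd-DTA than in Control, against 49.6% of all genes tested. Their median log2 fold change was -0.16, beside 0.0018 over all genes tested. The direction held under every scaling of library sizes tried, while Acacb, Scd2 and Elovl6 crossed 0 under some other alternatives, given with those genes. Fold changes were fitted with the quasi-likelihood model of edgeR, p-values were adjusted over all 16496 genes by the Benjamini-Hochberg method, and no gene of the set reached an adjusted p below 0.05, a threshold that 0.0788% of all genes passed. 5 of them, Acaca, Fasn, Dgat2, Scd1 and Thrsp, had an unadjusted p below 0.05 with a lower level, whereas 8.53% of all genes did. DESeq2 placed 2 of the genes, Acaca and Fasn, below an adjusted p of 0.05, where 2.64% of the genes it tested were called lower, and limma-voom placed none there. In whole bone, fewer adipocytes, less RNA per adipocyte and a changed share of other cells cannot be told apart in any of these values. The proliferation and osteoblast markers also differed between the groups without overlap.

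**Figure D1:**
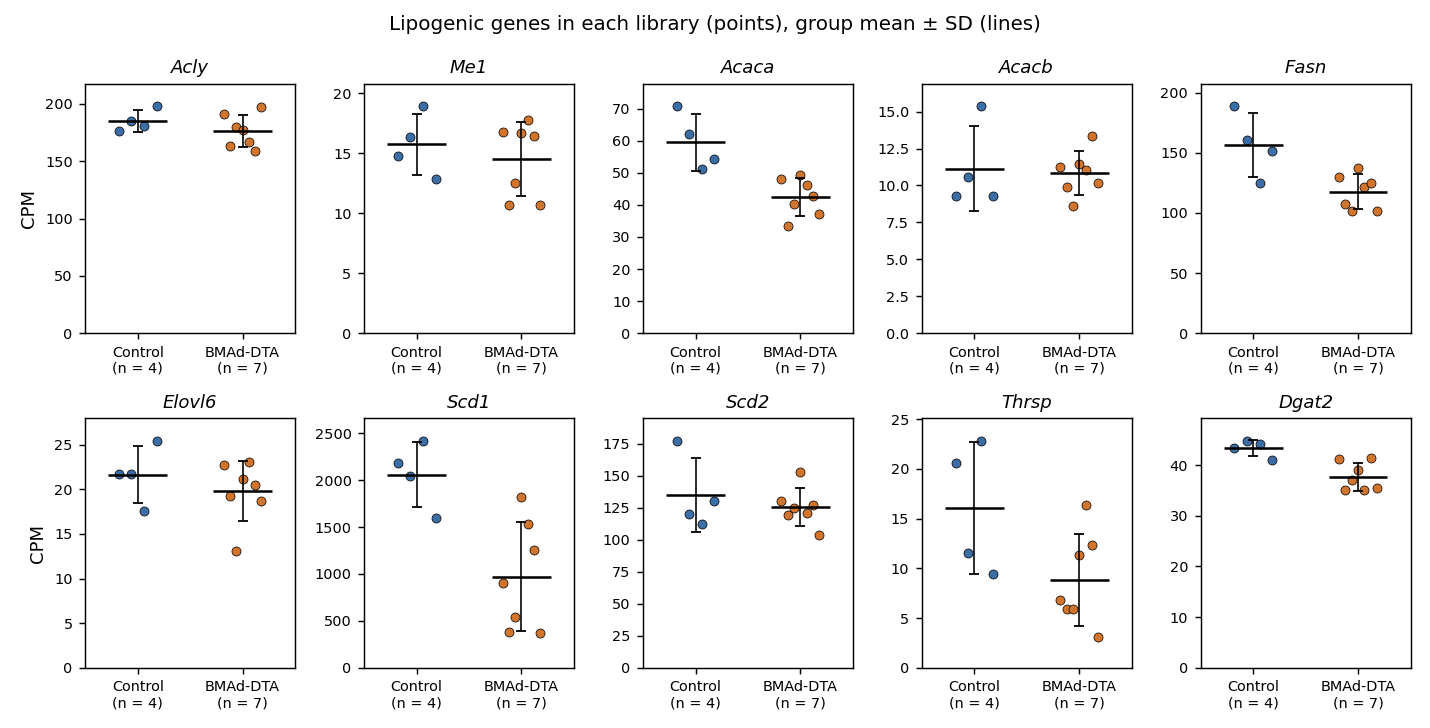
Level of each lipogenic gene in CPM (linear axes from 0) in the 4 Control and 7 BMAd-DTA libraries, with 1 point per mouse and lines for the group mean ± SD. Acaca is the gene whose groups do not overlap (51.1 to 70.8 CPM against 33.4 to 49.5 CPM), and Scd1 ranges from 369 to 1821 CPM among BMAd-DTA mice.

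**Figure D2:**
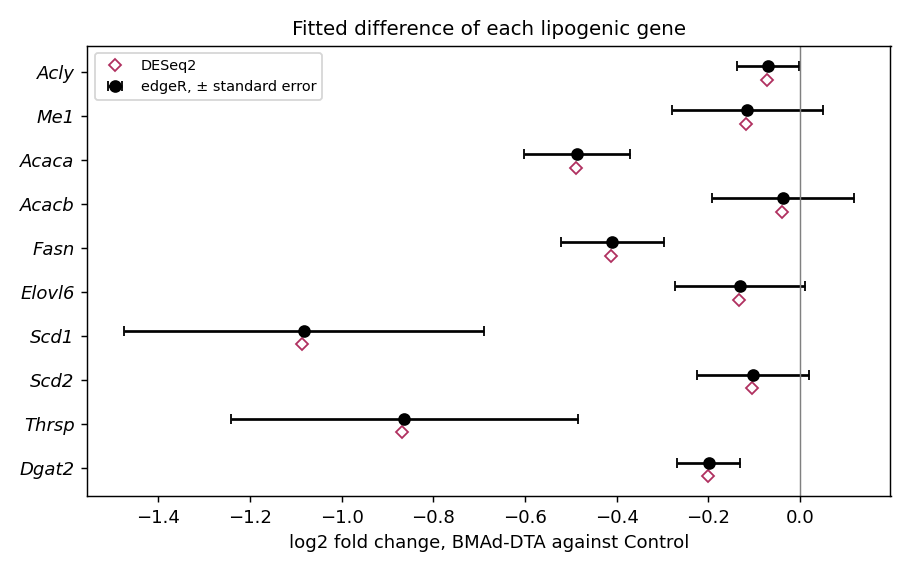
Fitted log2 fold change of each gene, BMAd-DTA against Control, from edgeR with its standard error (filled circles) and from DESeq2 (open diamonds). All 10 values lie below 0, from -1.08 for Scd1 to -0.037 for Acacb.

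The enzymes of substrate supply differed little between groups. Acly (chr11:100476353-100528000, minus strand, mm10) measured 177, 185, 181 and 198 CPM in the 4 Control mice, and from 159 to 197 CPM with a median of 177 CPM in BMAd-DTA mice. The groups overlapped, and 3 of 7 BMAd-DTA mice were under the lowest Control mouse. Its log2 fold change was -0.071 ± 0.068 (SE, adjusted p = 0.664, edgeR), and its coefficient of variation of 4.99% in Control was among the smallest of the set. The fold change was -0.037 without Control mouse 4 and -0.00045 in the 7 libraries rich in muscle RNA. Me1 (chr9:86581371-86695953, minus strand) measured 14.8, 16.4, 18.9 and 12.9 CPM in Control. In BMAd-DTA it ranged from 10.7 to 17.7 CPM with a median of 16.4 CPM. The BMAd-DTA mice fell into a lower set of 3 (mice 2, 3 and 7, at 10.7, 12.5 and 10.7 CPM) and a set of 4 within the Control range, and the log2 fold change over all mice was -0.12 ± 0.16 (SE, adjusted p = 0.788, edgeR). It was -0.012 without Control mouse 3, -0.20 without Control mouse 4 and -0.054 without BMAd-DTA mouse 2 or 7. Exons of Me1 overlap the antisense transcript A330041J22Rik, and the count without regard to strand was 95.8% of the stranded count, compared with 100% to 101% for the other 9 genes.

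Of the acetyl-CoA carboxylase paralogs, Acaca had groups that did not overlap and Acacb had groups that did. Acaca (chr11:84129672-84401651, plus strand), the cytosolic form that feeds fatty acid synthase, measured 70.8, 62.1, 51.1 and 54.2 CPM in Control. In BMAd-DTA it ranged from 33.4 to 49.5 CPM with a median of 42.9 CPM. Every BMAd-DTA mouse lay below every Control mouse, a pattern seen in 1.04% of all genes tested. The mean in BMAd-DTA was 71.3% of that in Control (log2 fold change -0.49 ± 0.12 SE, unadjusted p = 0.00102 and adjusted p = 0.0774 in edgeR, adjusted p = 0.00547 in DESeq2). Without Control mouse 3 the edgeR adjusted p was 0.0462, in a fit that called 292 of 16757 genes. With all mice 13 of 16496 genes were called. Over all alternatives the adjusted p of Acaca ran from 0.00547 to 0.279. The proliferation markers also separated the groups without overlap, lower in BMAd-DTA, and the osteoblast markers did so in the opposite direction. Their part in the differences of Acaca and Fasn was not tested. Acacb (chr5:114146535-114250761, plus strand), the mitochondria-bound form whose malonyl-CoA restrains fatty acid oxidation, measured 9.31, 10.5, 15.4 and 9.28 CPM in Control, and from 8.62 to 13.4 CPM with a median of 11.02 CPM in BMAd-DTA. 6 of 7 BMAd-DTA mice fell within the Control range, and the log2 fold change was -0.037 ± 0.15 (SE, adjusted p = 0.937, edgeR). That value was 0.16 without Control mouse 3, 0.011 without BMAd-DTA mouse 3, 0.011 with limma-voom and 0.043 with the muscle score as a covariate.

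Within each mouse, the ratio of Acaca to Acacb was 7.60, 5.89, 3.33 and 5.84 in Control and from 3.20 to 4.67 in BMAd-DTA, with a median of 4.19. Control mouse 3, which had the highest Acacb, fell among the BMAd-DTA mice, so the groups overlapped and 1 BMAd-DTA mouse lay below every Control mouse. The difference in mean log2 ratio was -0.47 (exact permutation over 330 splits, two-sided, p = 0.0545 before and after adjustment over 2 ratios). Its size rested on single mice. Without Control mouse 1, which had the highest ratio, it was -0.31 with an exact p of 0.183. Without Control mouse 3 it was -0.71 with an exact p of 0.00833, the smallest that the remaining mice allow. Fewer mice allow fewer splits, which raises the smallest possible p. Without Control mouse 2 or 4 the exact p was 0.117 or 0.108, without any 1 BMAd-DTA mouse it ran from 0.0476 (mouse 3, difference -0.51) to 0.0905, and in the 7 libraries rich in muscle RNA it was 0.2.

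Fasn (chr11:120805846-120824547, minus strand), the multifunctional synthase, followed Acaca closely. It measured 189, 161, 125 and 152 CPM in Control and from 101 to 138 CPM in BMAd-DTA, with a median of 122 CPM. 4 of 7 BMAd-DTA mice lay below every Control mouse, and the overlap came from Control mouse 3, the lowest Control. The mean in BMAd-DTA was 75.3% of Control (log2 fold change -0.41 ± 0.11 SE, unadjusted p = 0.00296 and adjusted p = 0.106 in edgeR, adjusted p = 0.0210 in DESeq2). Without Control mouse 3 the log2 fold change was -0.50 and the edgeR adjusted p was 0.0437, in the fit that called 292 of 16757 genes. Over all alternatives the adjusted p of Fasn ran from 0.0210 to 0.376. Across the 11 libraries Acaca and Fasn had a Pearson correlation of 0.94 on the log2 CPM scale, given as a description, and each was among the 3 genes most like the other among the 12973 genes that averaged 50 counts or more. The other nearest genes were Trim37 and Acer3 for Acaca and Paxip1 and Psrc1 for Fasn.

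Elongation to stearate did not stand apart from the spread between mice. Elovl6 (chr3:129532355-129638495, plus strand) measured 21.8, 21.7, 17.6 and 25.4 CPM in Control, and from 13.1 to 23.0 CPM with a median of 20.4 CPM in BMAd-DTA. 6 of 7 BMAd-DTA mice fell within the Control range, and mouse 3 was below it at 13.1 CPM. The log2 fold change was -0.13 ± 0.14 (SE, adjusted p = 0.707, edgeR), and 0.026 in the 7 libraries rich in muscle RNA. It was -0.21 without Control mouse 3, -0.044 without Control mouse 4 and -0.051 without BMAd-DTA mouse 3.

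Scd1 (chr19:44394455-44407879, minus strand), the desaturase typical of adipocytes and liver, had the largest fitted difference of the set. It measured 2186, 2041, 2417 and 1592 CPM in Control. In BMAd-DTA mice 1 to 7 it measured 907, 385, 539, 1821, 1535, 1251 and 369 CPM, in that order. 6 of 7 BMAd-DTA mice lay below every Control mouse, and mouse 4 lay inside the Control range. The spread among BMAd-DTA mice was wide, with a coefficient of variation of 59.6% against 16.9% in Control and a 4.94-fold distance from lowest to highest. Mice 2, 3 and 7 stood at 18.7%, 26.2% and 17.9% of the Control mean, while mice 4 and 5 stood at 88.4% and 74.5%. The group mean was 47.2% of Control (log2 fold change -1.08 ± 0.39 SE), with an unadjusted p of 0.0163 and an adjusted p of 0.185 in edgeR and an adjusted p of 0.141 in DESeq2. Over all alternatives the adjusted p of Scd1 ran from 0.137 to 0.419 and the log2 fold change stayed below 0. The 12 adipocyte markers, none of them in the set, all had a lower fitted level as well, at a median of -1.20 on the log2 scale. In edgeR 1 of the 12, Retn, fell below an adjusted p of 0.05, as did 0.0788% of all genes. 9 of the 12 were lower with an unadjusted p below 0.05, as were 8.53% of all genes. With DESeq2 3 of the 12 had an adjusted p below 0.05, where 2.64% of the genes it tested were called lower. The part of these markers in the difference of Scd1 was not tested.

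Scd2 (chr19:44293674-44306864, plus strand), the desaturase expressed in brain and in many other cells, measured 177, 120.02, 112 and 130.4 CPM in Control. In BMAd-DTA it ranged from 103 to 153 CPM with a median of 125 CPM, and 6 of 7 mice fell within the Control range. Its log2 fold change was -0.10 ± 0.12 (SE, adjusted p = 0.733, edgeR), and 0.055 without Control mouse 1, -0.18 without Control mouse 3, -0.16 without Control mouse 2 or BMAd-DTA mouse 4, and -0.061 without BMAd-DTA mouse 7. The ratio of Scd1 to Scd2, in which library scaling cancels, was 12.3, 17.01, 21.5 and 12.2 in Control. In BMAd-DTA it ranged from 3.22 to 12.7 with a median of 6.95, and 6 of 7 mice lay below every Control mouse. The difference in mean log2 ratio was -1.23, with an exact two-sided permutation p of 0.0273 that became 0.0545 after adjustment over 2 ratios, where 0.00303 is the smallest p the design allows. The exact p was 0.05 without Control mouse 2 (difference -1.18) and 0.0667 without Control mouse 3 (difference -1.07). In the 7 libraries rich in muscle RNA it was 0.0571 (difference -1.17). These subsets allow fewer splits, so the smallest possible p in them is larger than 0.00303.

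Thrsp (chr7:97412938-97417730, minus strand) varied widely in both groups. It measured 20.6, 11.54, 22.8 and 9.38 CPM in Control and from 3.09 to 16.4 CPM in BMAd-DTA, with a median of 6.78 CPM. 4 of 7 BMAd-DTA mice, mice 1, 2, 3 and 7, lay below every Control mouse, and the other 3 fell within the Control range. The mean in BMAd-DTA was 55.0% of Control (log2 fold change -0.86 ± 0.38 SE, unadjusted p = 0.0400 and adjusted p = 0.275, edgeR). The coefficient of variation was 41.1% in Control and 52.8% in BMAd-DTA.

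Dgat2 (chr7:99153658-99182719, minus strand), which completes triacylglycerol, had the smallest relative spread in Control and a small difference between groups. It measured 43.4, 44.8, 44.1 and 41.1 CPM in Control and from 35.0 to 41.3 CPM in BMAd-DTA, with a median of 37.1 CPM. 5 of 7 BMAd-DTA mice lay below every Control mouse, and mice 1 and 6 overlapped with Control mouse 4. The mean in BMAd-DTA was 87.1% of Control (log2 fold change -0.20 ± 0.068 SE, unadjusted p = 0.0120 and adjusted p = 0.164, edgeR).

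The genes did not all vary together from mouse to mouse. BMAd-DTA mice 2, 3 and 7 had 10, 10 and 9 of the 10 genes below the Control mean, with a median deviation of -0.41, -0.44 and -0.45 on the log2 scale. In the other 4 BMAd-DTA mice 6 to 8 of the genes were below that mean, with a median deviation between -0.14 and -0.049. Control mice had 3, 3, 5 and 8 of the genes below their own mean. Mice 2, 3 and 7 were also the mice with the lowest adipocyte score, the mean log2 CPM of the 12 adipocyte markers, at 2.30, 3.13 and 2.80. The other BMAd-DTA mice had scores of 3.98 to 4.45, and Control mice had scores of 4.32 to 5.38.

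**Figure D3:**
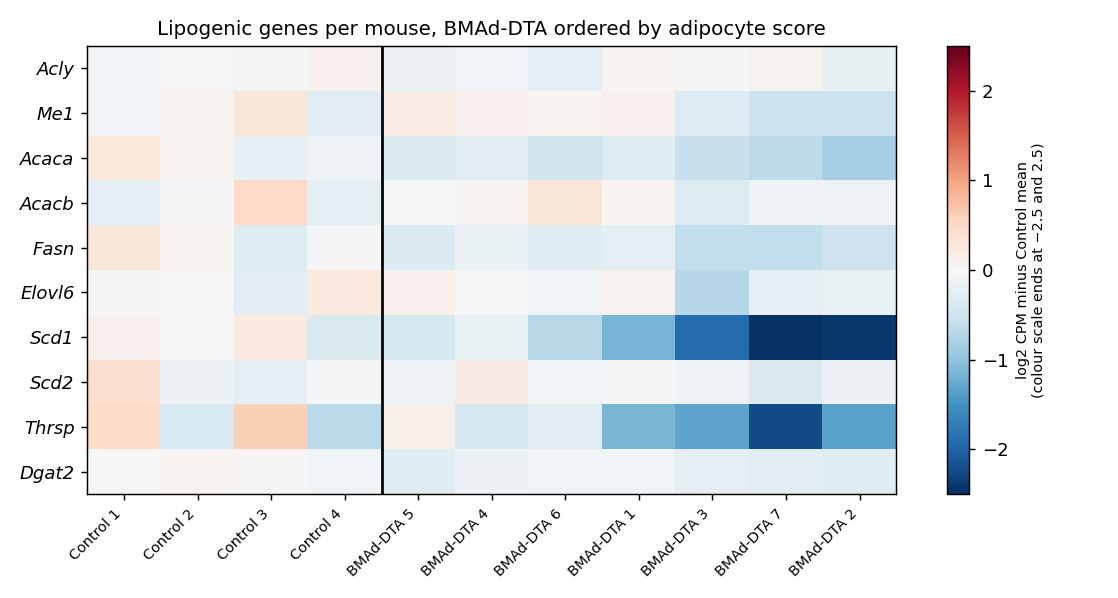
Deviation of each gene from the Control mean (log2 CPM, blue lower, red higher) in every mouse, with BMAd-DTA mice ordered from the highest to the lowest adipocyte score. The 3 mice on the right, BMAd-DTA 3, 7 and 2, have 10, 9 and 10 of the 10 genes below the Control mean.

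Within the 7 BMAd-DTA mice, the level of 3 genes followed the adipocyte score by Pearson correlation (exact permutation, two-sided, adjusted over 20 relations). The share of all genes with such a correlation was not computed, so whether the relation is particular to these genes is not known. The correlation of Scd1 was 0.97 (p = 0.000794, adjusted p = 0.0159, n = 7, permutation), and Spearman's rho was 0.93 (adjusted p = 0.0675). Me1 had a correlation of 0.97 (permutation p = 0.00278, adjusted p = 0.0212) and a rho of 0.86 (permutation p = 0.0238, adjusted p = 0.159). Acaca had a correlation of 0.93 (permutation p = 0.00317, adjusted p = 0.0212) and a rho of 0.82 (permutation p = 0.0341, adjusted p = 0.171). Without the 2 mice farthest from the median score the correlations were 0.97 for Scd1, 0.95 for Me1 and 0.72 for Acaca. No rank correlation passed the adjusted threshold, and the gap between the 3 lowest scores and the other 4 leaves too few mice on either side for a correlation of its own. Fasn (0.84) and Thrsp (0.82) missed the threshold with an adjusted permutation p of 0.136 each, and Acly had a correlation of -0.20 (adjusted permutation p = 0.798). None of the 10 genes passed with the skeletal muscle score, where the smallest adjusted permutation p was 0.332 for Pearson correlation.

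**Figure D4:**
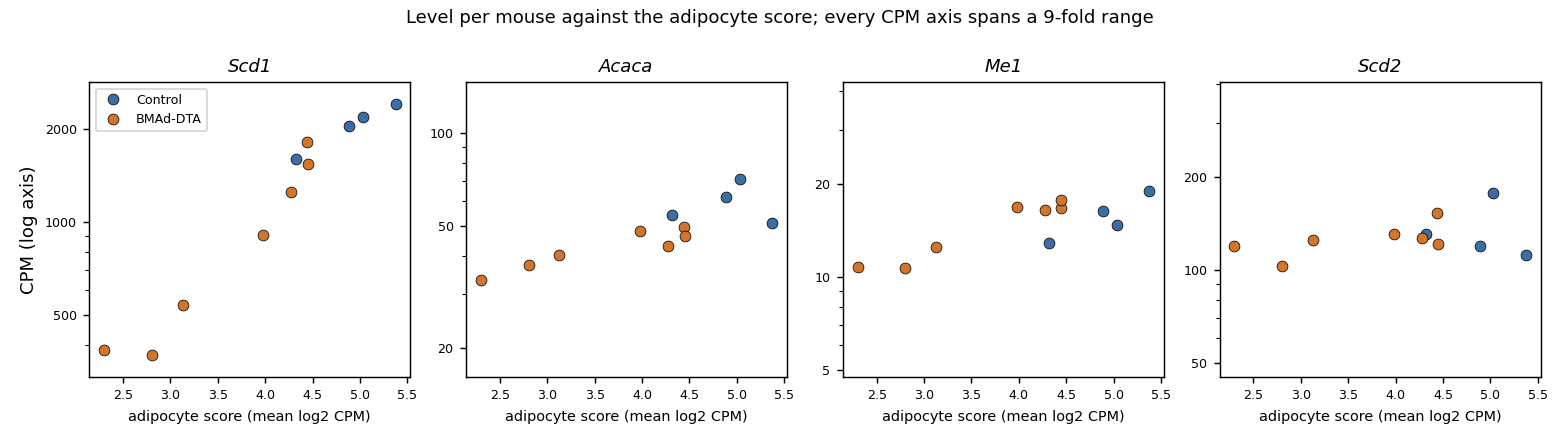
Level of Scd1, Acaca, Me1 and Scd2 in CPM (log axes, each spanning a 9-fold range) against the adipocyte score of each mouse, Control in blue and BMAd-DTA in orange. Within BMAd-DTA the Pearson correlation is 0.97 for Scd1, 0.93 for Acaca, 0.97 for Me1 and 0.62 for Scd2.

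Over all 11 libraries, the genes whose log2 CPM was most like that of Scd1 were Calml3 (r = 0.995), the lipid droplet protein gene Plin1 (r = 0.993) and Adcyap1r1 (r = 0.985). For Thrsp they were Il34 (r = 0.95), the fatty acid carrier Fabp4 (r = 0.94) and Zfp683 (r = 0.93), and for Dgat2 they were Cobl (r = 0.94), Padi4 (r = 0.90) and Nrp1 (r = 0.90). Plin1 and Fabp4 are adipocyte markers. For Me1 the nearest were Zfp703 (r = 0.96), C130074G19Rik and Exoc3l2, for Acly Hic2 (r = 0.95), Nfx1 and Zyg11b, and for Elovl6 Ipo9 (r = 0.91), the mitochondrial carnitine palmitoyltransferase gene Cpt2 and Gas2l1. For Acacb they were Zfp142 (r = 0.90), Mib2 and Pcdhb17, and for Scd2 Pex2 (r = 0.89), Itga9 and Gm16378. These correlations pool both genotypes and share libraries, and they are given without a test.

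Since muscle content and the share of unmapped pairs differed between libraries, the differences were also taken within sets of like libraries. Among the libraries rich in muscle RNA (3 Control and 4 BMAd-DTA) 8 of the 10 genes were lower in BMAd-DTA, with a median difference of -0.16. Among those poor in muscle RNA (1 Control and 3 BMAd-DTA) 8 of 10 were lower, with a median of -0.21. Among libraries with more than 12% unmapped pairs (2 Control and 4 BMAd-DTA) 9 of 10 were lower, with a median of -0.29. Among the others (2 Control and 3 BMAd-DTA) 7 of 10 were lower, with a median of -0.21. The share of all genes that were lower within each set was not computed, so these counts have no background to be read against. Acaca was lower by a log2 difference between -0.48 and -0.45 in each of the 4 sets, and Scd1 by one between -1.48 and -1.14. The sets re-divide the same mice and are not independent of each other. For Acaca the direction in every set was fixed beforehand, since its groups did not overlap. For Scd1 it was likewise fixed in both muscle sets and in the set with more than 12% unmapped pairs. Only in the remaining set did its groups overlap, where BMAd-DTA mouse 4 lay above Control mouse 4. Fasn lay between -0.47 and -0.32, whereas Thrsp ranged from -1.24 in the muscle-rich set to -0.17 in the muscle-poor set, which has 1 Control mouse.

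Around the 10 genes, 65 other genes of the pathway were listed by role, and 59 of them were tested. Of these, 41 were lower and 18 higher by their fitted level in BMAd-DTA, with a median log2 fold change of -0.060. None passed an adjusted p of 0.05 in edgeR or limma-voom, 12 had an unadjusted p below 0.05 (11 lower and 1 higher, where 8.53% of all genes were lower at that threshold), and 3 passed in DESeq2, which called 2.64% of all genes lower. These 3 were Mlxipl, Prkaa2 and Brca1, all lower in BMAd-DTA.

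Of 14 regulators 9 were lower, and the extremes were Mlxipl and Insig2. Mlxipl, which encodes the carbohydrate response factor ChREBP, measured 2.64 to 10.2 CPM in Control and 1.43 to 4.81 CPM in BMAd-DTA. Its groups overlapped, since 3 of 7 BMAd-DTA mice lay below the lowest Control mouse, and the log2 fold change was -1.23 ± 0.39 (SE, adjusted p = 0.137 in edgeR and 0.0279 in DESeq2). Insig2, which retains the sterol regulatory proteins in the endoplasmic reticulum, stood at a log2 fold change of 0.15 ± 0.11 (SE, adjusted p = 0.559, edgeR). All 10 genes of citrate export, acetate activation and NADPH supply had a fitted value below 0, but their median was -0.049 and none had an unadjusted p below 0.05 in edgeR. Their range ran from -0.15 for G6pdx to -0.0086 for Pgd, both of the pentose phosphate route, and Pgd turned to the other side of 0 with upper-quartile scaling (0.0043). In the muscle-rich libraries G6pdx stood at -0.032.

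Of 12 tested elongation and desaturation genes 6 were lower and 6 higher, from Elovl4 (-0.53 ± 0.42 SE, adjusted p = 0.583, edgeR) to the enoyl reductase Tecr (0.094 ± 0.090 SE). Elovl4 was at no more than 1.18 CPM in any library. Of 15 tested genes of glycerolipid assembly 10 were lower, with a median of -0.12, from Acsl1, an acyl-CoA synthetase of adipocytes and muscle (-0.33 ± 0.11 SE, adjusted p = 0.160 in edgeR), to Mogat2 (0.11 ± 0.15 SE). Of 8 tested genes whose products restrain acetyl-CoA carboxylase or remove malonyl-CoA, 6 were lower, with a median of -0.18. Prkaa2, a catalytic subunit of AMP-activated kinase, measured 8.04 to 10.1 CPM in Control and 4.48 to 7.83 CPM in BMAd-DTA. The groups did not overlap, as in 1.04% of all genes, and the log2 fold change was -0.55 ± 0.16 (SE, adjusted p = 0.117 in edgeR and 0.0290 in DESeq2). In the muscle-rich libraries it was -0.32 (adjusted p = 0.458, edgeR). Brca1, which binds the phosphorylated carboxylase and also acts in DNA repair of dividing cells, measured 53.7 to 84.4 CPM in Control and 42.0 to 61.0 CPM in BMAd-DTA (log2 fold change -0.43 ± 0.13 SE, adjusted p = 0.119 in edgeR and 0.0334 in DESeq2). The kinase subunit Prkab2 was the highest of this class at 0.20 ± 0.081 (SE, adjusted p = 0.234, edgeR), and 6 of 7 BMAd-DTA mice exceeded the highest Control mouse. Without Control mouse 3, another catalytic subunit gene, Prkaa1, had an edgeR adjusted p of 0.0483 with a log2 fold change of -0.25. That fit called 292 of 16757 genes, and Prkaa1 is named here after its value was seen. The genes not tested were Elovl2, Elovl3, Scd3, Scd4 and Mogat1, each with at most 63 counts over all libraries, and 1 listed gene was not analysed here.

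**Figure D5:**
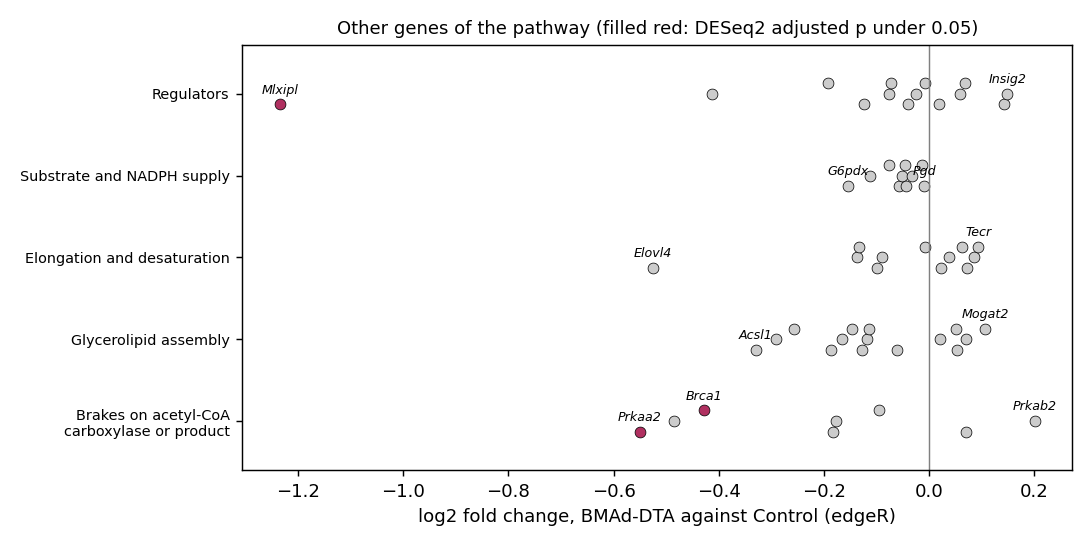
Fitted log2 fold change (edgeR, BMAd-DTA against Control) of the 59 tested pathway genes by role, with 1 point per gene and red points for an adjusted p under 0.05 in DESeq2. The 3 red points, Mlxipl (-1.23), Prkaa2 (-0.55) and Brca1 (-0.43), all lie below 0.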

How the data were processed

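RNA from whole distal tibiae of 11 mice was sequenced as strand-specific, paired 100-base reads. According to the methods and the submitters' processing notes, the authors checked reads with FastQC 0.11.9, mapped them with STAR (default settings) to mm10, and used DESeq2. The annotation release is not given in the sources used here. The deposited values are raw counts per gene, for each library and merged, without normalization. Multimapping pairs (6.68% to 9.07% per library) and ambiguous pairs (1.49% to 1.70%) are outside the counts. Lines that name no gene were left out.

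The test for the merged counts was edgeR 4.0.16 under R 4.3.3 (filterByExpr, TMM, glmQLFit, glmQLFTest, genotype only, two-sided, Benjamini-Hochberg over 16496 genes). For standard errors, each log2 fold change was divided by the root of its F statistic. CPM used TMM library sizes, and RPKM used GENCODE M21 exon lengths (99.9% of identifiers matched without version, and all 10 genes). Scores are means of log2 CPM with a prior count of 2. DESeq2 1.42.0 and limma-voom 3.58.1, other scalings and filters, per-library counts, a muscle covariate and leaving out each mouse were alternatives. A muscle-rich subset and an unmapped-pair covariate were added after seeing the data. On simulated data with 200 genes changed by a log2 of 1, edgeR recovered 87% and 88.5% in 2 runs, with 14 and 15 false calls. DESeq2 recovered 94% and 96%, with 30 and 41 false calls. The changed genes averaged at least 50 counts. Of the 10 genes only Scd1 had a fitted change as large as the simulated one, and recovery of smaller changes was not simulated.

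The 10 genes and all lists were chosen with earlier results of these data known. Named were all 10 genes, the pathway genes that passed in edgeR or DESeq2, the extremes of each class, and the 3 genes most correlated with each of the 10. Mice are numbered in the order of their records, so the numbers pair nothing. P-values of the group fits set the difference between groups against the spread between mice. Those of the ratios and correlations come from permutations over mice.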

Additional observations from a re-analysis of the deposited data

How the results depend on the processing

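The direction of Acaca, Fasn, Scd1, Thrsp, Dgat2, Acly and Me1 was the same under all 23 alternatives. Acacb turned to 0.011 with limma-voom and 0.043 with the muscle covariate, Elovl6 to 0.026 in the muscle-rich libraries, and Pgd to 0.0043 with upper-quartile scaling, 0.0087 with the muscle covariate and 0.057 in the muscle-rich libraries. When each mouse was left out in turn, log2 fold changes ranged from -0.12 to 0.16 for Acacb, from -0.18 to 0.055 for Scd2, from -0.046 to 0.040 for Pgd, from -0.20 to -0.012 for Me1, from -0.21 to -0.044 for Elovl6 and from -0.099 to -0.037 for Acly. Of the other pathway genes named, Insig2, Tecr and Mogat2 also moved by more than 1.5 times. So did G6pdx (-0.15 to -0.032) and Prkaa2 (-0.55 to -0.32) in the muscle-rich libraries. Of the 10 genes, 2 passed with DESeq2 and 0 to 2 with a mouse left out (2 without Control mouse 3), and of the pathway genes 3 and 0 to 1 (1 without Control mouse 3). Over all genes the 13 calls became 20 with RLE scaling, 845 with DESeq2, 238 with limma-voom and 3 with the muscle covariate. They became 103 in the muscle-rich libraries, 93 with the unmapped-pair covariate and 0 to 292 with a mouse left out. The 292 calls came without Control mouse 3, the same fit in which Acaca, Fasn and Prkaa1 passed. The log2 ratio difference of Scd1 to Scd2 was -1.17 in the muscle-rich libraries and -1.39 to -1.06 with a mouse left out, and that of Acaca to Acacb was -0.71 to -0.31. The causes of these changes were not tested. No paired analysis was possible because the labels give no replicate numbers. With 4 Control mice, 1 of them can decide a call. Thrsp rested on as few as 58 counts in a library, Acacb on 152 and Me1 on 187.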
